A study of Rattus norvegicus with 6 samples.

Results

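Immediate-early response genes were measured in cultured brainstem cells from 2 inbred rat strains, the spontaneously hypertensive rat (SHR), whose blood pressure rises with age, and the Wistar Kyoto rat (WKY), the normotensive control. The 10 genes were Fos, Fosb, Jun, Junb, Atf3, Egr1, Egr2, Arc, Nr4a1 and Ier2. They were taken as all probes whose single gene symbol in the array annotation is one of these names, which gave 10 genes of 12198 named in the deposited table, read by 14 of its 33849 probes. Fos, Junb, Egr1 and Atf3 had 2 probes each and the other 6 genes had 1. Each strain had 3 single-colour CodeLink arrays, and each array carried RNA of cells pooled from 3 dishes. The labels name no treatment, age, sex or stimulus for either strain, so the culture conditions behind these values, on which this gene class depends, are not specified. The labels do not tell whether the pools of a strain were grown from separate animals, and the p-values cover only the spread between these pools, which may be technical.

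Immediate-early genes are transcribed within minutes of a stimulus such as a growth factor, calcium entry or cyclic AMP, without new protein synthesis. Kinase cascades reach factors already bound at their promoters, chiefly serum response factor with its Elk partners and CREB, and the transcripts decay quickly. Most of the products are transcription factors that set a later wave of genes. In the brainstem, Fos protein is widely used as a marker of neurons activated by changes in blood pressure. In culture, the same genes also respond to serum, medium change and handling, and astrocytes, fibroblasts and microglia express them as well as neurons.

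The median signal of an array was 439 to 572 units before quantile normalization and 520 on every array after it. Array correlations across probes were 0.969 to 0.980 within a strain and 0.964 to 0.977 between strains. Markers of several cell types were bright, though the neuronal gene Snap25 was not (36.9 to 104.3 units). Bright examples were the neuronal genes Stmn2 (9529 to 14009) and Uchl1 (14804 to 21576), the astrocyte gene S100b (24368 to 34116), the myelin gene Mbp (9786 to 35322) and the macrophage gene Cd68 (31708 to 38986). The values are therefore those of mixed cultures, in which more cells of a type and more RNA per cell cannot be told apart. Of 33249 probes tested with limma, 0 (0%) had an adjusted p under 0.05, and 2545 (7.65%) had an unadjusted p under 0.05, with SHR higher at 1212 and lower at 1333. That split was 1542 to 846 without normalization between arrays and 904 to 1786 with arrays centred on their median.

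No immediate-early transcript passed the test for a strain difference, and Fosb was the gene that lay farthest apart. Fosb was 1.73-fold brighter in WKY, a difference that did not pass the threshold adjusted over all probes. Fos, Jun, Junb, Egr2 and Arc overlapped between the strains and differed by less than 0.20 (log2). Nr4a1 and Ier2 averaged lower in SHR by 0.40 and 0.27 (log2), within intervals that include 0. Of the 14 probes, 0 had an adjusted p under 0.05 in limma, and 1, that of Fosb, had an unadjusted p under 0.05, against 7.65% of all probes. The SHR and WKY values did not overlap at 3 of the 14 probes (SHR lower at 2 and higher at 1), against 13.8% of all probes. The median difference, SHR minus WKY, was -0.07 (log2) over the 14 probes and -0.010 over all probes, and the median size of the difference was 0.14 against 0.18. Below 0 were 10 of the 14 probes, but 5 of 14 without normalization between arrays, where the median of all probes was itself 0.115 and that of the members 0.11. They were 6 of 14 without SHR 3, and also without WKY 3.

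**Figure D1:**
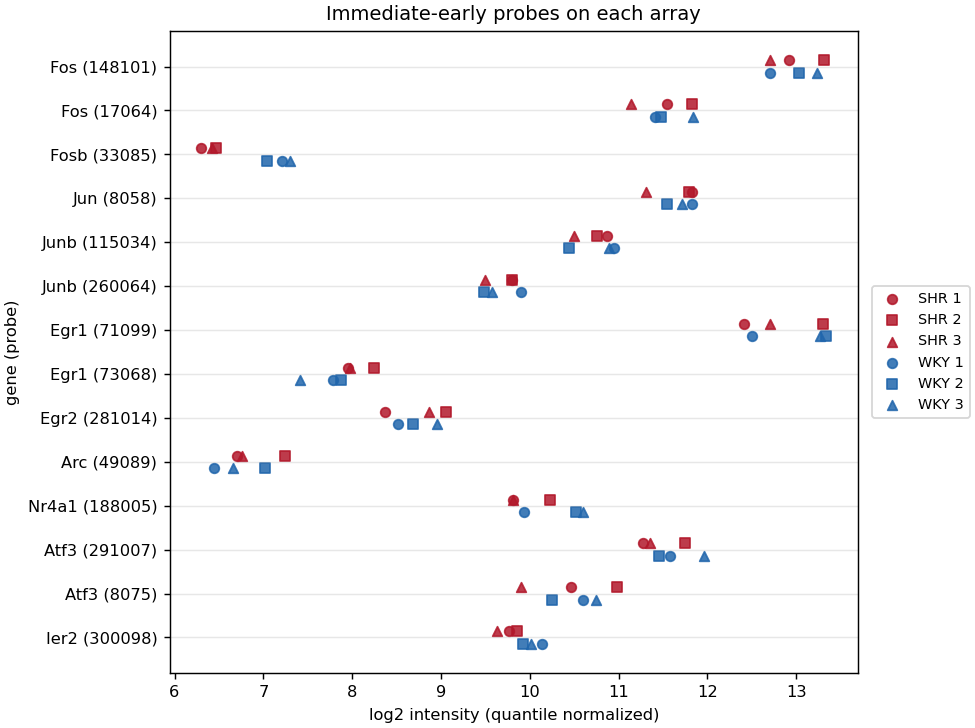
Log2 intensity after quantile normalization (horizontal axis) of each immediate-early probe (rows) on the 3 SHR arrays (red) and the 3 WKY arrays (blue), with a marker shape for each replicate number. The strains lie apart at Fosb, and narrowly at Ier2 and at probe 73068 of Egr1, and overlap at the other 11 probes.

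Fosb encodes a Fos family protein that pairs with Jun proteins in the AP-1 transcription factor, and its short splice form accumulates under repeated stimulation. Its probe read 78.6, 88.5 and 85.9 intensity units in the SHR pools and 147.8, 131.7 and 158.0 in the WKY pools. All 3 SHR pools lay below all 3 WKY pools, and the gap between the groups was wider than the spread within either. On the log2 scale the levels were 6.40 ± 0.09 (SD, n = 3) in SHR and 7.18 ± 0.13 in WKY. The difference was -0.79 ± 0.13 (SE), with a 95% interval of -1.11 to -0.47 and an adjusted p of 0.297 over all probes in limma (unadjusted p = 0.000808). There were 89 probes on the array with an unadjusted p at or under that of Fosb. The strains stayed apart without normalization between arrays and with arrays centred on their median. The difference lay between -0.98 and -0.54 over 16 alternatives, with adjusted p between 0.189 and 0.691. This probe is among the dimmest 25% of those tested, and it is the only Fosb probe, so no second probe could check it.

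Fos, the founding member of the Fos family, was measured by a pair of probes. Probe 148101 read 7748, 10153 and 6663 units in the SHR pools and 6663, 8346 and 9619 in the WKY pools. Probe 17064 read 2983, 3631 and 2258 in the SHR pools and 2729, 2859 and 3659 in the WKY pools. Both probes were highest among the SHR pools in SHR 2 and lowest in SHR 3, and highest among the WKY pools in WKY 3 and lowest in WKY 1, so the strains overlapped fully. The differences were -0.01 ± 0.22 (95% interval -0.53 to 0.51) and -0.07 ± 0.22 (-0.60 to 0.45). A strain difference within those bounds could not be resolved with 3 arrays per strain. The same 6 pools thus split by strain at Fosb and did not at Fos. Whether the strain difference of Fosb differs from that of Fos was not tested.

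Jun encodes the main partner of Fos proteins, and Junb a Jun family member that can oppose Jun. Jun read 3633, 3548 and 2537 units in the SHR pools and 3642, 3001 and 3371 in the WKY pools, a difference of -0.06 ± 0.18 (95% interval -0.50 to 0.39). Junb probe 115034 read 1872, 1734 and 1450 in the SHR pools and 1981, 1386 and 1901 in the WKY pools. The second Junb probe, 260064, read 889.8, 892.8 and 721.7 in the SHR pools and 954.9, 713.4 and 764.8 in the WKY pools. For both genes SHR 3 was the lowest of the SHR pools, WKY 2 the lowest of the WKY pools and WKY 1 the highest, at all 3 probes. The Junb differences were -0.05 ± 0.19 and 0.05 ± 0.17, opposite in sign and both small beside their errors.

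Atf3, a stress-induced factor of the ATF/CREB family that also pairs with Jun, had 2 probes that ordered the WKY pools alike. Probe 291007 read 2492, 3444 and 2605 units in the SHR pools and 3067, 2794 and 3970 in the WKY pools. Probe 8075 read 1404, 2015 and 958.2 in the SHR pools and 1551, 1220 and 1725 in the WKY pools. SHR 2 was the highest of the SHR pools and WKY 3 the highest of the WKY pools at both probes, and the groups overlapped. The differences were -0.20 ± 0.20 (95% interval -0.68 to 0.28) and -0.09 ± 0.29 (-0.80 to 0.62). Probe 8075 had the widest spread of the 14 probes over the arrays, 1.07 on the log2 scale between SHR 2 and SHR 3.

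**Figure D2:**
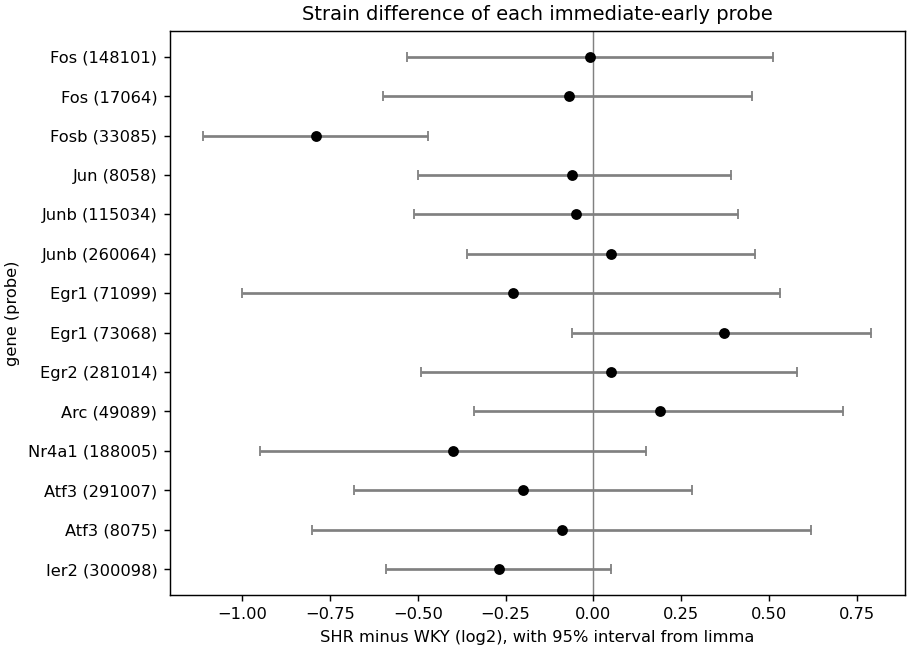
Difference in log2 intensity, SHR minus WKY (horizontal axis), for each immediate-early probe (rows). Points are limma estimates from 3 arrays per strain and bars are unadjusted 95% intervals, of which that of Fosb (-1.11 to -0.47) alone leaves out 0.

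Egr1 and Egr2 encode zinc finger factors that bind GC-rich sites, and Egr2 is also needed for myelination by Schwann cells and for hindbrain segments. The 2 Egr1 probes did not follow each other. Probe 71099 read 5452, 10105 and 6634 units in the SHR pools and 5789, 10395 and 9861 in the WKY pools, with SHR 1, SHR 3 and WKY 1 low and the other 3 pools high. Its difference was -0.23 ± 0.32 (95% interval -0.998 to 0.53). Probe 73068 read 247.6, 303.9 and 252.5 in the SHR pools and 221.3, 235.5 and 169.6 in the WKY pools, with every SHR pool above every WKY pool, a separation that was kept without normalization between arrays and lost with arrays centred on their median. Its difference was 0.37 ± 0.18 (-0.06 to 0.79), with an adjusted p of 0.674 in limma. Which part of the transcript each probe reads is not given in the sources used here, so no strain direction is stated for Egr1. Egr2 read 331.8, 532.6 and 466.6 in the SHR pools and 366.4, 408.9 and 498.8 in the WKY pools, a difference of 0.05 ± 0.22 (-0.49 to 0.58), with overlapping groups.

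Arc encodes a protein of dendrites that controls trafficking of AMPA receptors, and its transcript marks recently active neurons. It read 104.3, 150.9 and 108.1 units in the SHR pools and 87.5, 129.8 and 101.3 in the WKY pools, with SHR 2 and WKY 2 the highest of their strains. The difference was 0.19 ± 0.22 (95% interval -0.34 to 0.71), and the probe is, like that of Fosb, among the dimmest 25%. Nr4a1 encodes the orphan nuclear receptor Nur77. It read 896.7, 1199 and 896.4 units in the SHR pools and 972.4, 1464 and 1555 in the WKY pools, so that WKY 1 fell within the SHR range and the other WKY pools above it. The difference of -0.40 ± 0.23 (-0.95 to 0.15) had an adjusted p of 0.698 in limma. The Nr4a1 difference was -0.61 without WKY 1 (unadjusted p = 0.0202 in limma). In that setting 3528 of 32596 probes had an unadjusted p under 0.05, against 2545 of 33249 with all arrays. It was -0.27 without WKY 3 and -0.21 without normalization between arrays, and over all 17 alternatives the adjusted p lay between 0.414 and 0.991.

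Ier2, a small nuclear protein gene of the immediate-early class, read 871.6, 931.7 and 791.9 units in the SHR pools and 1131, 966.2 and 1034 in the WKY pools. Every SHR pool lay below every WKY pool, by a narrow margin between SHR 2 and WKY 2. The levels were 9.75 ± 0.12 (SD, n = 3) and 10.02 ± 0.11 on the log2 scale. The difference was -0.27 ± 0.13 (95% interval -0.59 to 0.05), with an adjusted p of 0.678 in limma. The separation was lost without normalization between arrays, where SHR 2 was above WKY 2 and WKY 3, and also with arrays centred on their median.

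Promoters of the members were searched for short motifs, and those of Ier2 and Junb are shown here. The 250 bases before the start are printed from RefSeq (assembly GRCr8) for Ier2 and Junb, whose windows lie outside the annotated gene. The window of Egr1 also lies outside its gene and is not printed. The capitals mark matches to the motifs searched, at chr19:40399123-40399372 for Ier2 and chr19:40080876-40081125 for Junb, both on the plus strand.
Ier2: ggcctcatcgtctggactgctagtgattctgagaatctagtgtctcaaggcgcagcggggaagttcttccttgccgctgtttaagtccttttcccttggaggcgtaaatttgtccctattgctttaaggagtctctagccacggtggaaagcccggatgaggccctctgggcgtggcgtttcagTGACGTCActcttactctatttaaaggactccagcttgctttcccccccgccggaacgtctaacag
Junb: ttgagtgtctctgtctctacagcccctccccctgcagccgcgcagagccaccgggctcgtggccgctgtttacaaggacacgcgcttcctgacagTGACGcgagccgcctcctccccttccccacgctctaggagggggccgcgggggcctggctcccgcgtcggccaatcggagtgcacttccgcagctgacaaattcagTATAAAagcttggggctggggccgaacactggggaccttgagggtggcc
In Ier2 the capitals are the full cyclic AMP response element TGACGTCA, 66 to 59 bases before the start, which also holds the short site TGACG on both strands. In Junb they are a short site TGACG at 155 to 151 bases and a TATAAA at 49 to 44 bases before the start. Windows of 6 members were in the table (Fosb, Junb, Egr1, Egr2, Nr4a1 and Ier2).

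Searched on both strands, the full element TGACGTCA was in 1 of these 6 windows and in 1.59% of all 33469 promoters in the table. The short site TGACG was in 5 of 6, all but Fosb, against 18.2% of all. The CArG box, the core of the serum response element, was in 2 of 6, Egr1 and Egr2, against 1.5% of all, and the match nearest the start read CCATATATGG in both. The EGR site GCGNGGGCG was in 1 of 6, Nr4a1, against 4.29%, and the AP-1 site TGANTCA in 0 of 6 against 6.34%. TATAAA was in 2 of 6, Fosb and Junb, against 12.9%. The Fosb match lay on the opposite strand, read as TTTATA, 180 to 175 bases before the start. The windows of Fosb, Egr2 and Nr4a1 lie inside the annotated gene. Whether these motifs bear on the strain differences was not tested.

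Immediate-early genes also varied between pools of a single strain. The median SD within strains was 0.27 (log2) over the 14 probes and 0.24 over all probes, and the range of a probe over the 6 arrays was 0.42 to 1.07. SHR 2 was the highest SHR pool at 12 of the 14 probes and the lowest at 0, while it was the highest at 35.9% and the lowest at 34.0% of all probes valid on 6 arrays. SHR 3 was the lowest SHR pool at 8 probes and SHR 1 at 6. Among the WKY pools, WKY 3 was the highest at 7 probes and the lowest at 1, against 31.2% and 28.2% of all probes. The mean over the 10 genes of log2 signal minus the gene's own mean, at 1 probe per gene, was -0.20, 0.15 and -0.22 in SHR 1 to 3 and -0.04, 0.07 and 0.24 in WKY 1 to 3. SHR 2 thus lay within the WKY range, and the other SHR pools lay below it. The probes share the same 6 RNA pools, so these counts are not independent observations.

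**Figure D3:**
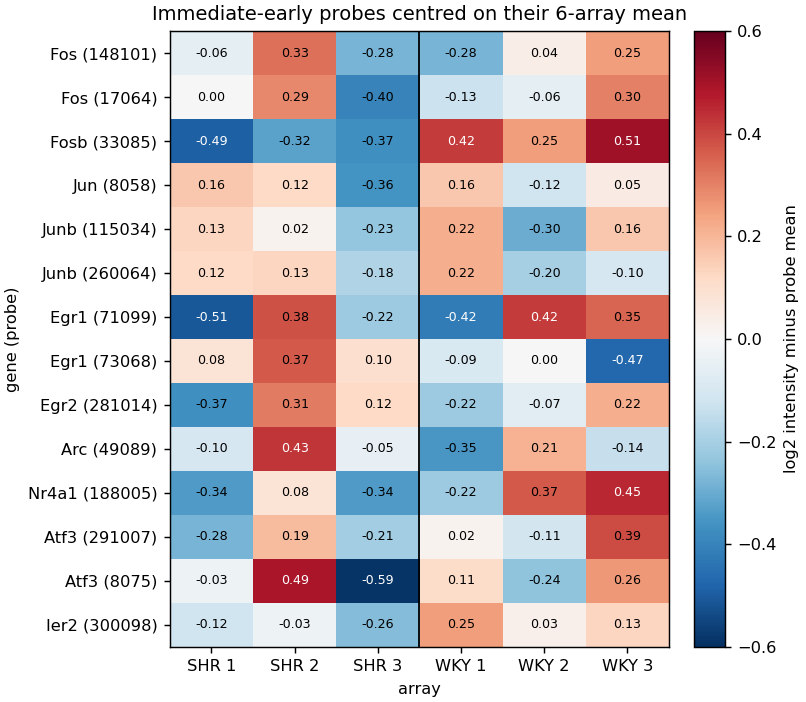
Log2 intensity minus the probe's mean over the 6 arrays (colour and printed value) for each immediate-early probe (rows) and array (columns). SHR 2 is above the probe mean at 12 of 14 probes and SHR 3 is below it at 12 of 14. Fosb is the row that splits by strain most clearly.

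Wider groups of the same response were read at the brightest complete probe of each gene. Among all 11709 named genes read in this way, 6.7% had an unadjusted p under 0.05 and 13.9% had strains that did not overlap, with a median difference of -0.00088. Of 17 other immediate-early transcription factors, 0 had an adjusted and 0 an unadjusted p under 0.05 in limma, 8 lay above 0 and 9 below, and the median was -0.02. Maff, a small Maf factor, differed by 0.34 ± 0.16 with no overlap, and Klf4, a Krüppel-like factor, by 0.30 ± 0.17. Bhlhe40, a basic helix-loop-helix repressor, gave -0.22 ± 0.14 (-0.02 ± 0.13 at its other probe) and Csrnp1 gave -0.21 ± 0.16. Klf6 (-0.05 ± 0.19, and -0.24 at its other probe) and Sertad1 (0.05 ± 0.14) were the brightest probes of this group.

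Among 30 immediate-early effectors, 0 had an adjusted and 0 an unadjusted p under 0.05 in limma, 14 lay above 0 and 16 below, and the median was -0.08. Strains did not overlap at 5 of them (16.7%, against 13.9% of all named genes), 3 higher and 2 lower in SHR. Gadd45b, a stress sensor, gave 0.34 ± 0.16 and Dusp6, a phosphatase that switches off ERK, gave 0.22 ± 0.12. Sik1, a salt-inducible kinase, gave -0.48 ± 0.24. Bdnf, the neurotrophin gene, read 45.2, 48.2 and 34.6 units in the SHR pools and 42.5, 88.4 and 67.5 in the WKY pools and gave -0.58 ± 0.29. Zfp36l1, an RNA-binding protein that promotes transcript decay, and Sgk1, a glucocorticoid-induced kinase, were the brightest probes and gave 0.04 ± 0.14 (0.27 at the other probe of Zfp36l1) and -0.22 ± 0.15.

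Genes upstream of the response, the kinases and the factors that wait at its promoters, had 20 of 32 measured. Of these 14 lay below 0, 6 above, and the median was -0.09. Strains did not overlap at 4 (20%, against 13.9% of all named genes), all lower in SHR. In limma 1 (5%, against 6.7%) had an unadjusted p under 0.05, and 0 had an adjusted p under 0.05. Camk4, a calcium-dependent kinase of CREB, read 283.1, 329.7 and 301.2 units in the SHR pools and 404.1, 377.7 and 398.2 in the WKY pools, and gave -0.37 ± 0.12 with an adjusted p of 0.582. Rps6ka5, the kinase MSK1 that phosphorylates CREB and histone H3, gave -0.43 ± 0.20 (-0.42 and -0.20 at its other probes). Elk1, the partner of serum response factor, gave -0.24 ± 0.13, but 0.12 ± 0.16 at its other probe. Ep300, a coactivator of CREB, gave -0.27 ± 0.13, and its other probes gave -0.06, 0.48 and -0.02. Map2k1 (-0.07 ± 0.14) and Crebbp (-0.04 ± 0.16) were the brightest probes of this group.

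Later targets of activity and AP-1 had 20 of 22 genes measured, 14 below 0 and 6 above, with a median of -0.10. In limma 0 of these had an adjusted p under 0.05. An unadjusted p under 0.05 was found at 1 (5%, against 6.7% of all named genes), lower in SHR. That gene was Fst, the activin-binding follistatin, which read 174.2, 165.3 and 198.5 units in the SHR pools and 247.4, 366.0 and 290.7 in the WKY pools, with no overlap. Its difference was -0.73 ± 0.18 (adjusted p = 0.511 in limma), and its other probe gave -0.57 ± 0.37. Gal, the galanin gene, gave 0.75 ± 0.32, Pdyn, the prodynorphin gene, gave -0.84 ± 0.36, and Nab1, a corepressor of Egr proteins, gave -0.23 ± 0.12 (-0.22 at its other probe). Of 10 heat shock and stress genes, 5 lay on each side of 0, with a median of -0.01 and 0 under an adjusted or unadjusted p of 0.05 in limma. Hsph1, a heat shock protein, was the farthest from 0 by p at 0.47 ± 0.27.

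**Figure D4:**
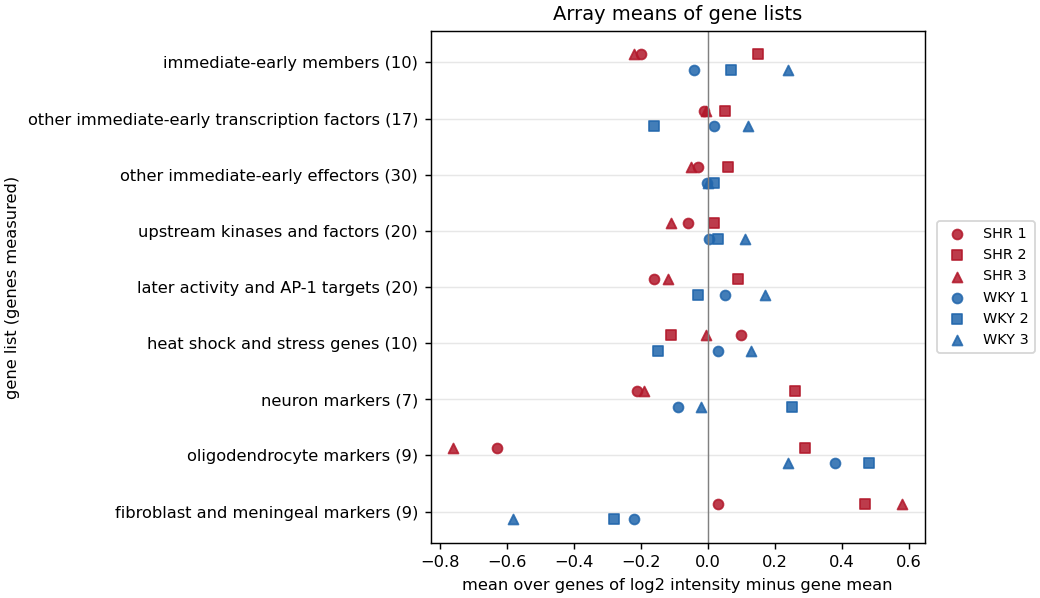
Mean over the genes of a list of log2 intensity minus the gene's own mean (horizontal axis) on each SHR array (red) and WKY array (blue), for immediate-early genes, related lists and 3 lists of cell type markers (rows, with the number of genes measured). SHR 2 is the highest SHR array for every list drawn except heat shock and stress genes and fibroblast and meningeal markers. Of the WKY arrays, WKY 3 is highest for immediate-early members, and WKY 2 for neuron and oligodendrocyte markers.

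Markers of some cell types moved over the same pools. Neuron markers (7 of 10 measured) had array means of -0.21, 0.26 and -0.19 in the SHR pools and -0.09, 0.25 and -0.02 in the WKY pools. These means ordered SHR 2 above SHR 1 and SHR 3 as the immediate-early genes did. In WKY the top pool differed, WKY 2 for neuron markers and WKY 3 (0.24) for immediate-early genes. Single neuron markers did not all follow their mean. Of the SHR pools, SHR 2 was highest at Stmn2, Snap25 and Eno2 (a neuronal enolase) but lowest at Uchl1. Of the WKY pools, WKY 2 was highest at Eno2 and Snap25 but lowest at Stmn2, and Uchl1 was highest in WKY 1. Oligodendrocyte markers (9 of 10) had means of -0.63, 0.29 and -0.76 in the SHR pools and 0.38, 0.48 and 0.24 in the WKY pools. Astrocyte markers (9 of 10) lay between -0.12 and 0.11 on all arrays. Markers of microglia and macrophages (10 of 10) were -0.01, -0.06 and -0.09 over the SHR pools and -0.01, 0.03 and 0.14 over the WKY pools. These means were lower in SHR with no overlap before rounding, but SHR 1 and WKY 1 both rounded to -0.01. Singly, 0 of the 10 genes had strains that did not overlap, against 13.9% of all named genes. Below 0 lay 8 of the 10, against 5876 of all 11709, with a median difference of -0.07. Fibroblast and meningeal markers (9 of 10) were 0.03, 0.47 and 0.58 in the SHR pools and -0.22, -0.28 and -0.58 in the WKY pools. These means were higher in SHR with no overlap, and singly 3 of the 9 genes did not overlap (33.3%, against 13.9% of all named genes). Markers of endothelium and smooth muscle (8 of 10) lay between -0.27 and 0.14. The part of cell composition in the immediate-early values was not tested.

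Genes with a pattern most like that of Fos over the 6 arrays were sought among 9131 named genes with an SD of at least 50% of that of Fos. The measure was the root mean square difference between centred log2 values, 0 for an identical pattern. At their brightest probes, the 5 nearest were Dram1 (0.06), Ptprn (0.07), Tmie, Iyd and Tnfrsf19 (0.08 each). Dram1 encodes a lysosomal protein induced by p53, and Ptprn a membrane protein of dense-core vesicles. Of the other members, Atf3 (0.19), Egr2 and Arc (0.21 each) were nearest to Fos and Fosb (0.45) was farthest, with 7.41% of the candidates nearer than Atf3 and 73.9% nearer than Fosb. The likeness rests on 6 values per gene and is given as a description.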

How the data were processed

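Each strain had 3 arrays. Spot intensity had its background subtracted in the CodeLink software by the authors, per the labels' design text, which also names a cutoff above the negative controls and quantile normalization. No version of that software is given in the sources used here. The series table holds the deposited quantile normalized intensity and was the main source. The deposited per-sample intensity tables, not normalized between arrays, were an alternative. In the main source, 615 entries per array are not above 0 and were set to missing; all 14 member probes had values on the 6 arrays. Log2 was taken with no offset. Probes needed 3 valid values in one strain and 2 in the other. A two-sided moderated test of SHR minus WKY was run in limma 3.58.1 under R 4.3.3, and p-values of all 33249 probes were adjusted together by Benjamini-Hochberg, with 0.05 as the threshold. Of probes with 1 symbol, 16724 of 16753 had an Entrez identifier in the RefSeq gene table, which updated 1 symbol. The fit was tested on simulated data. The number of arrays limits the precision.

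The members and all lists were chosen with earlier results of these data known. Named from each list were up to 4 genes with the smallest unadjusted p and, for the immediate-early and upstream lists, the 2 brightest. Alternatives changed the source and normalization, an offset of 50 units, the probe filters, limma's prior, array weights, 1 probe per gene, a replicate block, the threshold, and each array left out in turn. Correlations of deviations from strain means were 0.0011, 0.22 and -0.129 for same-numbered arrays and -0.25 to 0.268 for the others. The numbers were therefore not taken as pairs. Figures were drawn with matplotlib 3.10.9.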

Additional observations from a re-analysis of the deposited data

How the results depend on the processing

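The count of immediate-early probes past the threshold was 0 in every alternative run, and Fosb, Nr4a1, Ier2, Arc, both Egr1 probes and Atf3 probe 291007 kept their direction in all of theirs (Fosb and Arc were not tested without the dimmest 25% of probes). Their sizes moved, from -0.98 to -0.54 for Fosb, -0.61 to -0.21 for Nr4a1, -0.33 to -0.09 for Ier2, 0.02 to 0.34 for Arc, -0.50 to -0.04 and 0.23 to 0.46 for Egr1 probes 71099 and 73068, and -0.35 to -0.03 for Atf3 probe 291007. Over all probes the count past the threshold was 0 as reported and 17 with an offset, 5 with probes valid on all 6 arrays, 18 without the dimmest 25%, 28 with an intensity trend and robust prior, 5 with array weights, 9 with 1 probe per named gene and 13 at an adjusted p of 0.10. It was 0 with each array left out. In the fit with a replicate block, 0 probes passed, members included, and Fosb gave -0.79 with an adjusted p of 0.572. Small differences turned direction at 7 of the 14 probes. Without normalization between arrays Fos gave 0.13 and 0.10, Jun 0.12, Junb probe 115034 0.14 and Atf3 probe 8075 0.09, and with array weights Egr2 gave -0.05. With single arrays left out the values ran from -0.18 to 0.13 (148101) and -0.24 to 0.11 (17064) for Fos, -0.15 to 0.11 for Jun, -0.21 to 0.05 (115034) and -0.04 to 0.17 (260064) for Junb, -0.10 to 0.24 for Egr2 and -0.36 to 0.18 for Atf3 probe 8075. Without SHR 3 or WKY 3, 6 of 14 probes lay below 0, against 10 with all arrays, and without SHR 2, 12 did. The causes were not tested.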
